A study of Caenorhabditis elegans with 2 samples.

Results

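The genes described here encode small GTPases and membrane traffic proteins of Caenorhabditis elegans, and their promoters were examined for binding of GMEB-1 in L2 larvae. They are the protein-coding genes whose symbols start with rab-, arl-, arf-, vps- or sec- in the Ensembl annotation of build WBcel235, without the sec-61 genes. The rule gives 76 of the 19973 protein-coding genes on nuclear chromosomes. A gene was counted as bound when a summit of the reproducible region list lay from 1000 bp upstream to 200 bp downstream of one of its transcript starts. The rule names genes by symbol alone and uses no measured value, but the set was chosen with earlier results of these data known.

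The GMEB proteins of mammals recognise the glucocorticoid modulatory element with a SAND domain, and GMEB-1 is their relative in the worm. Chromatin immunoprecipitation and sequencing (ChIP-seq) recorded its binding in mixed-sex whole larvae of strain OP343. This strain carries the integrated transgene wgIs343, which supplies eGFP-tagged gmeb-1, in the background unc-119(ed3) III. There was 1 group with 2 biological replicates, the same control is listed for both, and the samples used here hold no other genotype, stage or factor. The antibody field of the labels names gmeb-1 and the description an eGFP fusion, so whether tagged protein alone or also the untagged protein was recovered is not known. The labels do not say how the transgene is driven, and whole larvae average binding over all tissues.

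Rab, Arf and Arl proteins are small GTPases that switch between a GTP-bound and a GDP-bound state, and they recruit the proteins that move, tether and fuse vesicles. The COPII coat buds vesicles from the endoplasmic reticulum, and the exocyst tethers secretory vesicles to the plasma membrane. ESCRT complexes sort ubiquitinated membrane proteins into the inner vesicles of late endosomes, retromer returns cargo from endosomes, and HOPS and CORVET tether membranes of the endosome and lysosome.

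The sequences below reach 50 bp to either side of selected summits and are read along the strand of the gene from the RefSeq genome WBcel235, which is the same build as ce11. They are shown because they include the strongest summit of the set, promoters with 2 or more motif matches from each group, and a pair of COPII paralogs that differ in binding. Capitals mark matches on either strand to ACGT, the core sequence known from mammalian GMEB proteins, or to 4 longer motifs found in these same data in an earlier analysis. The longer motifs are ACGCGC, which reads GCGCGT on the opposite strand, GAGCGC, which reads GCGCTC there, the motif AGACGC, which reads GCGTCT, plus GAGAGA, which reads TCTCTC. The last bases of AGACGC can also be the first bases of the motif ACGCGC, as at the left end of the vps-60 window. The windows are vps-22 at III:4963068-4963168 on the minus strand, vps-37 at V:5592474-5592574 on the plus strand, and vps-60 at V:8606414-8606514 on the minus strand. They continue with sec-3 at X:3099970-3100070, sec-24.1 at IV:11566311-11566411 and rab-7 at II:11967660-11967760, all on the minus strand. The last is sec-24.2 at IV:12360909-12361009 on the minus strand, which has no summit and was taken at the same 167 bp from its start as the summit of sec-24.1.
vps-22: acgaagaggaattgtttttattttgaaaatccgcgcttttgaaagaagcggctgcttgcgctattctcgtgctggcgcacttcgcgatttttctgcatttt
vps-37: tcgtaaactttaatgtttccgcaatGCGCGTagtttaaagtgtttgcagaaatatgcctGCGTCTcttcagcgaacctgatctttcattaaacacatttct
vps-60: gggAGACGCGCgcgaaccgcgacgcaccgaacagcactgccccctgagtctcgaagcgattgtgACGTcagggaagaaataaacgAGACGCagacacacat
sec-3: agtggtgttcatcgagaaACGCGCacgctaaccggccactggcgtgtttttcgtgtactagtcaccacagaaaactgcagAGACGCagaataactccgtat
rab-7: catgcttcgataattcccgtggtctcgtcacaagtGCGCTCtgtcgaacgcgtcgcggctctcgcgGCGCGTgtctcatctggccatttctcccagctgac
sec-24.1: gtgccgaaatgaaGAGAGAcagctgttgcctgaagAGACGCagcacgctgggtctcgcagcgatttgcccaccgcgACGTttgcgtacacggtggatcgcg
sec-24.2: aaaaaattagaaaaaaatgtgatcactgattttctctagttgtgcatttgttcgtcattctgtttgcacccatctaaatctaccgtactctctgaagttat

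The vps-22 window held no match, although its summit had the highest signal of all member summits. The vps-37 and sec-3 windows each held ACGCGC with the motif AGACGC, and the rab-7 window held GAGCGC with the motif ACGCGC. The vps-60 window held 4 matches, which were AGACGC at both ends, the motif ACGCGC at the left end, plus ACGT. The sec-24.1 window held GAGAGA, the motif AGACGC, plus ACGT, with 60.4% G or C, whereas the sec-24.2 window held none, with 32.7% G or C. A match is a description of letters in a window and does not show which base GMEB-1 touched.

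GMEB-1 summits lay in the promoters of 27 of the 76 genes, or 35.5%, against 16.4% of all 19973 protein-coding genes. Among the complexes of at least 5 members, the vps-named ESCRT genes had the highest share, with 9 of 11 bound, or 81.8%. This order did not hold in other counts. With genes of other names included, 10 of 19 ESCRT genes and 7 of 10 COPII genes were bound. When each summit counted only for the gene with the nearest start, the shares were 54.5% for vps-named ESCRT genes and 57.1% for COPII genes. The comparison of complexes gave 7 of 13 COPII and exocyst genes (53.8%), 12 of 22 ESCRT, retromer and HOPS genes (54.5%), and 6 of 26 rab and arl genes (23.1%). Of the 15 other genes, which are arf genes, GARP and EARP subunits, the Vps34 kinase and a few sec and vps genes, 2 were bound (13.3%). The share of rab and arl genes and that of the other genes were near the 16.4% of all genes. The shares are descriptions without a p-value, because genes that share a promoter are not independent and a single group of 2 replicates offers no comparison over samples. Without another factor to compare, whether any share is particular to GMEB-1 was not tested.

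The reproducible list is the authors' optimal list, which passed an irreproducible discovery rate (IDR) threshold, and it held 3909 regions. Its signal, the value the authors' caller gave each region, ran from 38.7 to 2077 with a median of 68.4. The deposited lists hold regions and no reads, and sequencing depth cannot be read from them. Each replicate also had a relaxed list that includes background regions, with 28693 regions in replicate 1 and 30000 in replicate 2. A bound call did not require a region in both. Of all 3267 bound genes, 724 had no region of replicate 1 at the strongest summit. The highest signal was 191.1 in replicate 1 and 1996 in replicate 2, so replicates were compared by rank.

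Counted in each replicate's own 3909 highest-ranked regions, 23 members (30.3%) were bound in replicate 1 against 11.8% of all genes. In replicate 2 the count was 28 members (36.8%) against 16.5% of all genes. Both replicates placed 22 members (28.9%) among these regions, against 8.77% of all genes. All 22 were also bound in the IDR list, as were 1727 of the 1751 genes that both replicates placed there. The IDR list was derived from the same lists, so this overlap is not separate support. The members that reached neither replicate's top regions nor the IDR list numbered 46. For ESCRT the counts were 7 genes in replicate 1 and 9 in replicate 2, and for rab genes they were 6 in each.

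**Figure D1:**
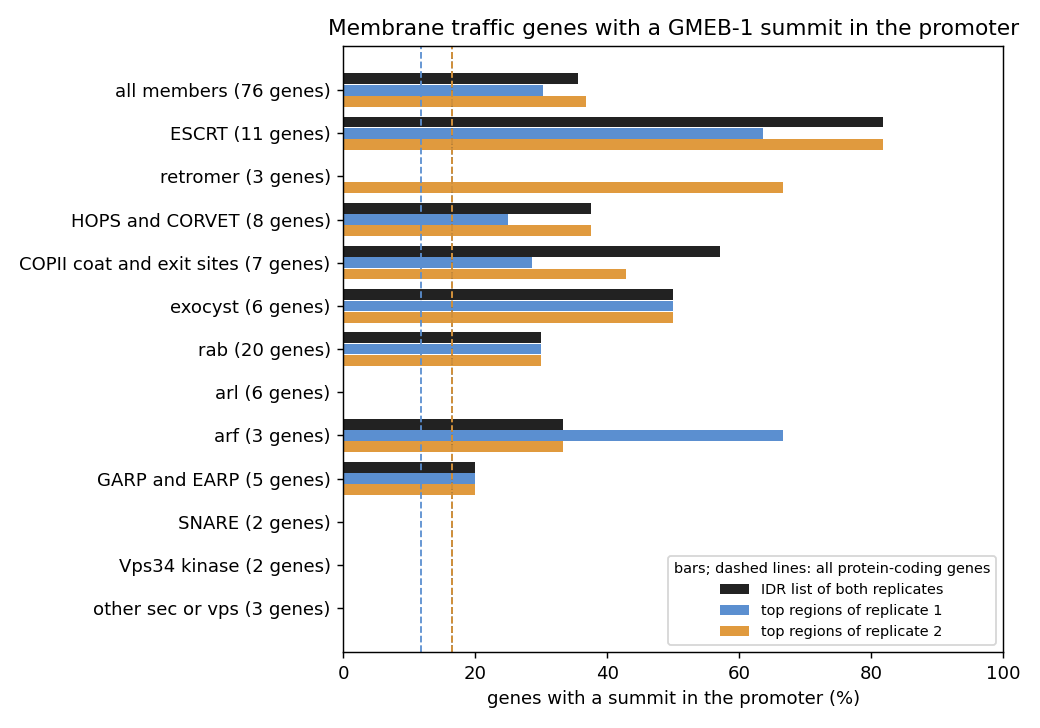
Share of genes bound in percent (horizontal axis) for each gene group, counted in the IDR list and in the top 3909 regions of each replicate, with dashed lines for all protein-coding genes. The IDR and replicate 2 lines, at 16.4% and 16.5%, lie almost on each other, and ESCRT reached 81.8% in the IDR list and in replicate 2 and 63.6% in replicate 1.

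Binding at the vps-named ESCRT genes covered several steps of the pathway. The promoters of vps-28 and vps-37 (ESCRT-I), vps-22 and vps-25 (ESCRT-II), vps-2, vps-24 and vps-32.1 (ESCRT-III), vps-60 (an ESCRT-III-like protein) and vps-4, the ATPase that takes ESCRT-III polymers apart, were bound. The members without a summit were vps-36 of ESCRT-II and vps-20 of ESCRT-III, whose best regions in the list called on both replicates together ranked 5172 and 5614, below the 3909 that passed. The signal of the strongest summit per bound ESCRT gene ran from 68.4 to 1203, with a median of 204.8.

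The vps-22 summit at III 4963118 had a signal of 1203 and ranked 11 of the 3909 regions, with ranks of 243 in replicate 1 and 11 in replicate 2. The signals in the replicates' own lists were 26.5 and 1178. It was intergenic, 625 bp upstream of the vps-22 start, and nearer to the start of C27F2.9, so it cannot be given to either gene alone. The vps-4 summit at I 1067164 had a signal of 649.7, ranked 37 in replicate 1 (own signal 56.9) and 96 in replicate 2 (591.1), and lay 265 bp upstream of vps-4 in no other promoter. These were the strongest summits of the group in both replicates.

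Signals of 234.0 and 204.8 were recorded at vps-28 (I 13588989, 158 bp upstream) and vps-37 (V 5592524, 176 bp upstream), and both summits lay in no other promoter. Their ranks were 3837 and 1825 in replicate 1 and 452 and 538 in replicate 2. Both therefore stood higher in replicate 2. The summit at vps-32.1 (II 6589068, signal 205.8, 640 bp upstream) ranked 799 and 537 in replicates 1 and 2, lay in a non-coding RNA gene and was nearest to icd-1, which encodes the beta subunit of the nascent polypeptide-associated complex. The vps-60 summit (V 8606464, signal 177.2, 336 bp upstream) ranked 385 and 673 and lay in no other promoter.

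The other ESCRT summits had lower signals. At vps-25 the stronger summit (I 12736772, signal 127.6) lay in the 5' UTR, 10 bp downstream of the start, and ranked 1308 and 935. A second one (I 12741289, signal 100.7), 14 bp upstream of another annotated start and shared with uba-2, ranked 1093 in replicate 2 and lay in no region of replicate 1. The vps-2 summit (II 12768517, signal 115.7, 300 bp upstream, shared with tiar-2) ranked 921 in replicate 2 and also lay in no region of replicate 1. At vps-24 (II 4993994, signal 68.4, 4 bp upstream, shared with eif-1 and pigb-1) the ranks were 19514 and 1917. The vps-2 and vps-24 genes are the bound ESCRT genes that the top regions of replicate 1 did not include, and the unbound vps-20 and vps-36 were outside them too.

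**Figure D2:**
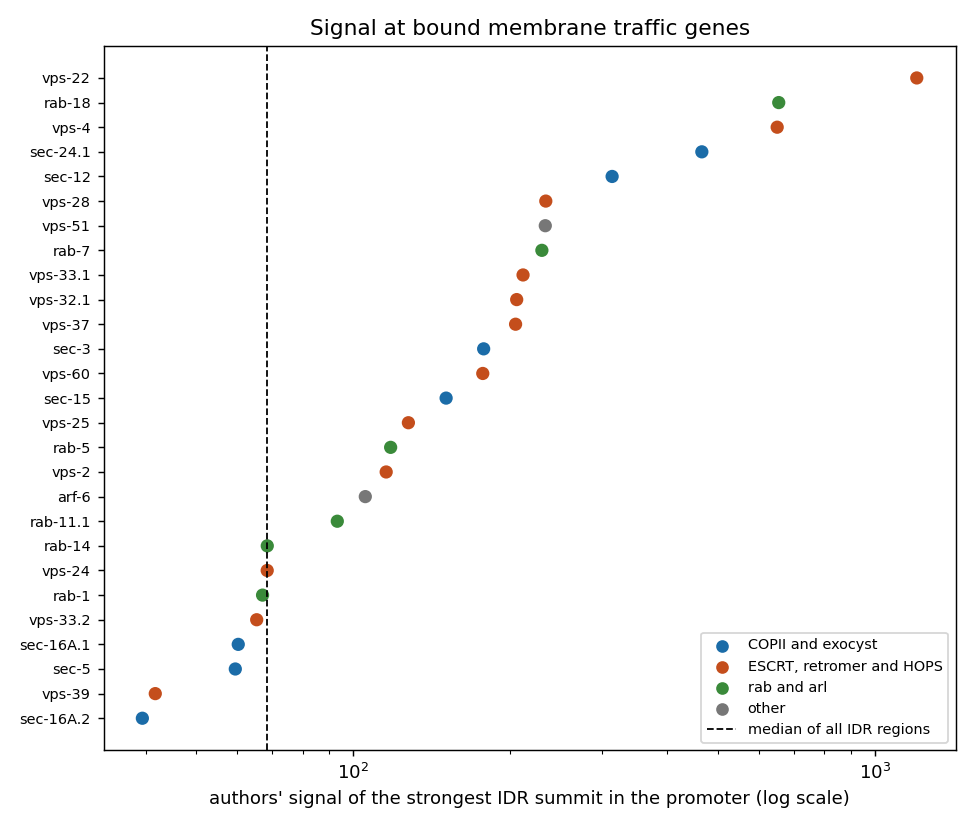
Signal of the strongest promoter summit of each bound member on a log axis, one gene to a line in order of signal and coloured by group, with a dashed line at the median of all IDR regions (68.4). The vps-22 point at 1203 stands above the rab-18 point at 654.2 and the vps-4 point at 649.7, and the lowest point is sec-16A.2 at 39.4.

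No retromer gene among vps-26, vps-29 and vps-35, which together form the cargo-binding core, had an IDR summit in its promoter. In replicate 2 alone, 2 of the 3 passed, since vps-26 ranked 3430 and vps-35 ranked 3281. In replicate 1 the best vps-26 region ranked 11554 and vps-35 had none, so the retromer count depends on the replicate used.

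Of 8 HOPS and CORVET genes, 3 were bound (37.5%). Both vps-33 genes, which encode SM proteins that work with SNAREs, were bound, and vps-33.2 is counted with HOPS here by its name. The vps-33.1 summit (III 8700749, signal 211.6) lay 178 bp upstream, was shared with sdz-1, and ranked 3376 in replicate 1 and 511 in replicate 2. The vps-33.2 summit (II 6601190, signal 65.3) lay 26 bp upstream, inside an intron of the autophagy gene epg-5, and ranked 1167 and 2344. The vps-39 summit (V 14038903, signal 41.7, 525 bp upstream, inside a pseudogene) ranked 3390 in replicate 2 and lay in no region of replicate 1. The unbound genes were vps-8, vps-11, vps-16, vps-18 and vps-41.

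COPII genes were bound in 4 of 7 cases (57.1%). The strongest summit was at sec-24.1, a cargo adaptor of the inner coat, with a signal of 465.9 at IV 11566361, 167 bp upstream. It ranked 282 in replicate 1 (own signal 24.6) and 178 in replicate 2 (439.8) and lay within the non-coding RNA genes F12F6.13 and F12F6.14 and in no other protein-coding promoter. Its paralog sec-24.2 had no region in its promoter in any list, and its nearest IDR summit was 11285 bp from a start.

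The sec-12 gene encodes the exchange factor that loads GTP onto SAR-1, the GTPase that starts the coat. Its summit (I 8511474, signal 313.6, 159 bp upstream) ranked 300 in replicate 2 and 19317 in replicate 1, with own signals of 309.2 and 2.84. It therefore rests on replicate 2. Both genes for SEC-16A, the scaffold of endoplasmic reticulum exit sites, were bound with low signal. The sec-16A.1 summit (III 9126083, signal 60.2, 153 bp upstream of another start in an intron of the gene) ranked 1980 in replicate 2 and lay in no region of replicate 1. The sec-16A.2 summit (X 8286954, signal 39.4, 295 bp upstream) ranked 8233 and 4350, outside the top regions of both replicates. Replicate 1 had another region in the sec-16A.1 promoter, at rank 3398. Of the bound COPII genes, sec-24.1 is thus the one whose IDR summit stood in the top regions of both replicates. The COPII count of 4 was 2 in the top regions of replicate 1 and 3 in those of replicate 2. The unbound COPII genes were sec-23, sec-24.2 and sec-31, which all encode coat proteins.

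Exocyst genes were bound in 3 of 6 cases (50%), and all 3 were in the top regions of both replicates. At sec-3 the summit (X 3100020, signal 177.9) lay 168 bp upstream in no other promoter and ranked 1302 and 640 in replicates 1 and 2. At sec-15 the summit (X 8836013, signal 150.7, 298 bp upstream) was shared with C28G1.2, the gene with the nearest start, and ranked 429 and 764. At sec-5 the summit (II 9177259, signal 59.4, 107 bp upstream) was nearest to pir-1 and ranked 3884 and 2536. The unbound subunit genes were sec-6, sec-8 and sec-10. Counting only summits in the 1954 strongest IDR regions, 4 of the 13 COPII and exocyst genes were bound (30.8%), against 19 of all 76 members (25%) and 10.2% of all genes.

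Among small GTPases, 6 of 20 rab genes (30%), none of 6 arl genes and 1 of 3 arf genes were bound, against 16.4% of all genes. With groups this small, the arl and arf counts cannot be told from that share. The strongest rab summit was at rab-18, which acts at lipid droplets and the endoplasmic reticulum in mammalian cells. This summit (III 1080762, signal 654.2) lay in the rab-18 5' UTR, 13 bp downstream of the start, and ranked 272 and 83 in replicates 1 and 2, with own signals of 25.1 and 627.4. It also fell in the promoters of kbp-4 and par-2.

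Among rab genes that act at endosomes, rab-5 of early endosomes and rab-7 of late endosomes were bound. Others that act there, such as rab-10, rab-21 and rab-35, were not. The rab-7 summit (II 11967710, signal 230.0) ranked 340 and 501 and lay 779 bp upstream, nearest to W03C9.5 and also in the promoter of mex-1. A second rab-7 summit (II 11966900, signal 55.6) lay in coding sequence, 31 bp downstream of the start, and ranked 2891 in replicate 2 with no region in replicate 1. The rab-5 summit (I 9307772, signal 118.0, 670 bp upstream, shared with nmat-2) ranked 1158 and 1081. These ranks were close to each other in the replicates for rab-5 and for the stronger rab-7 summit.

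Of the recycling and secretory rab genes, rab-11.1, rab-1 and rab-14 were bound. The rab-11.1 summit (I 110739, signal 93.2, 682 bp upstream) ranked 1466 and 1389 and was nearest to the ribosomal protein gene rpl-7. The rab-1 summit (V 1264546, signal 67.0, 557 bp upstream, shared with C39F7.5) ranked 3424 and 1894. The rab-14 summit (X 15607066, signal 68.4, 431 bp upstream, shared with nipi-3) ranked 616 and 2283. All 6 rab genes stood in the top regions of both replicates. The paralog rab-11.2 had no region in its promoter in any list, with the nearest IDR summit 22270 bp from a start, and neither rab-6.1 nor rab-6.2 was bound.

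The 14 unbound rab genes were rab-3, rab-6.1, rab-6.2, rab-8, rab-10, rab-11.2, rab-19, rab-21, rab-28, rab-30, rab-33, rab-35, rab-37 and rab-39. They include rab-3 of synaptic vesicles and rab-10 of basolateral recycling. The unbound arl genes were arl-1, arl-3, arl-5, arl-6, arl-8 and arl-13, of which arl-3, arl-6 and arl-13 work in cilia. The bound arf gene was arf-6, a GTPase of the plasma membrane and endosomes, with a summit (IV 16946943, signal 105.5, 177 bp upstream, nearest to Y116A8C.9) that ranked 2051 and 1164. In replicate 1, arf-1 also reached the top regions at rank 2225, but its best region ranked 4540 in replicate 2.

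Of 5 GARP and EARP genes, which encode tethers for endosome-derived vesicles, vps-51 alone was bound. Its summit (I 5807526, signal 233.5, 235 bp upstream) ranked 766 and 479 and was nearest to lin-35, the worm retinoblastoma relative. The genes vps-50, vps-52, vps-53 and vps-54 were not bound. The SNARE genes sec-20 and sec-22, the phosphatidylinositol 3-kinase genes vps-15 and vps-34, and sec-11, vps-13 and vps-45 were not bound either.

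Over the 27 bound members, the strongest summit had a median signal of 150.7 and a median IDR rank of 793, against 90.9 and 1415 over all 3267 bound genes. The summit lay in a region of replicate 1's relaxed list for 24 of the 27 (88.9%), against 77.8% of all bound genes. It lay in the top regions of replicate 1 for 21 (77.8%) against 51.9%, and in those of replicate 2 for 26 (96.3%) against 95.9%. Among the members held, the median rank was 1234.5 in replicate 1 and 764 in replicate 2, where all bound genes had medians of 2035 and 1389. The 3 bound members with no replicate 1 region at this summit were vps-2, sec-16A.1 and vps-39. Requiring a region of both relaxed lists left 24 members (31.6%), against 12.7% of all genes.

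**Figure D3:**
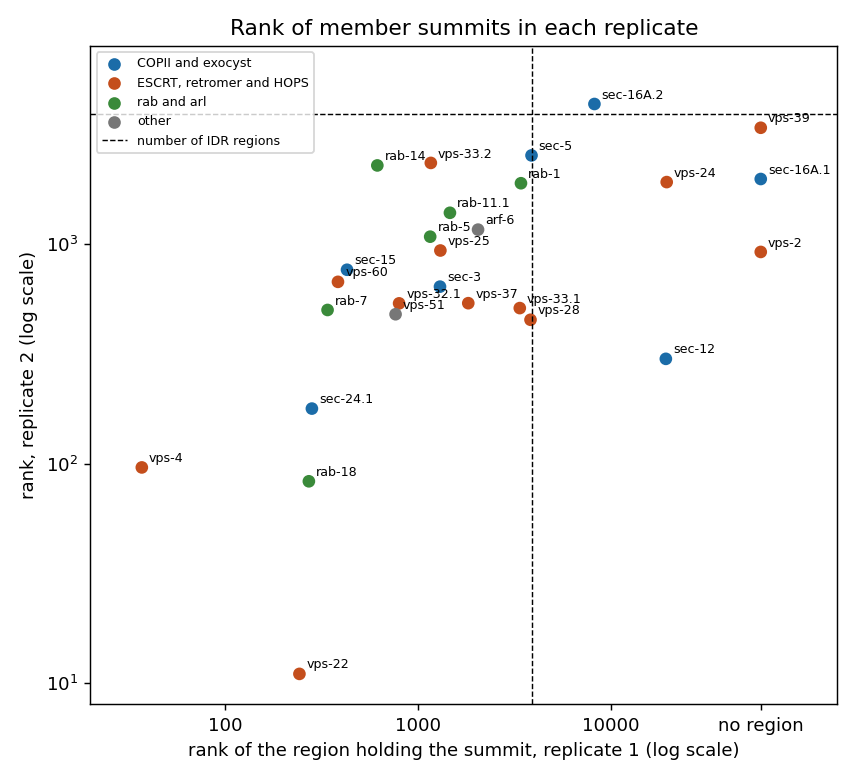
Rank of the region that holds the strongest summit of each bound member in replicate 1 (horizontal axis) and replicate 2 (vertical axis), both on log axes with rank 1 as the strongest, and dashed lines at rank 3909. For 21 of the 27 members the point lies left of the replicate 1 line, while sec-12 and vps-24 lie at 19317 and 19514 and 3 members are placed at no region.

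Summits lay on the upstream side of the member start for 25 of the 27 bound genes, at a median of 235 bp against 220 bp over all bound genes. The distances were short for COPII genes, from 153 to 295 bp, and for exocyst genes, from 107 to 298 bp. The rab genes had a median of 613.5 bp, and 4 of 6 lay more than 500 bp upstream, against 18.8% of all bound genes. All 6 strongest rab summits were shared with the promoter of another protein-coding gene, whereas none of the 4 COPII summits was. Over all bound members 15 of 27 summits (55.6%) were shared, close to the 50.6% of all bound genes.

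A shared summit cannot be given to a single gene. When each summit counted only for the gene with the nearest transcript start, 18 members (23.7%) were bound, against 12.2% of all genes. The count was then 6 of 11 ESCRT genes, 4 of 7 COPII genes, 4 of 20 rab genes and 1 of 6 exocyst genes. The genes that shared a member promoter included kbp-4 and par-2 at rab-18, lin-35 at vps-51, icd-1 at vps-32.1, rpl-7 at rab-11.1, nmat-2 at rab-5 and tiar-2 at vps-2. With both summits of rab-7 and vps-25 included, 19 of the 29 summits in member promoters were intergenic, 5 were in non-coding genes or pseudogenes, 2 in 5' UTRs, 2 in introns and 1 in a coding exon.

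**Figure D4:**
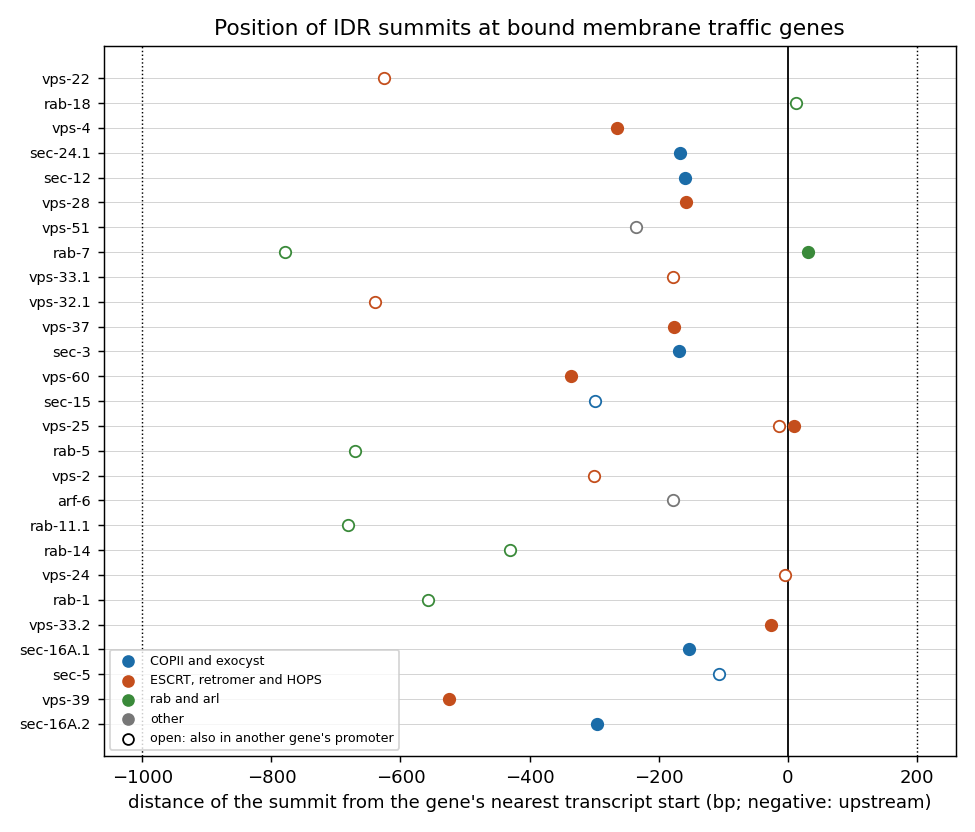
Distance of each member summit from the nearest start of its gene in base pairs, drawn with upstream to the left as negative values, in order of signal and coloured by group. Open symbols are summits that also lie in another gene's promoter and dotted lines are the promoter limits. COPII points lie between 153 and 295 bp upstream, and 4 of the 6 strongest rab summits lie beyond 500 bp.

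Many C. elegans genes are transcribed in operons from a promoter ahead of the first gene. Genes with a same-strand protein-coding neighbour ending within 300 bp upstream are called operon-like here. Of the 20 operon-like members, 1 had a summit in its own promoter (5%), sec-12, against 10.6% of all operon-like genes. Of the 56 other members, 26 were bound (46.4%), against 17.2% of all other genes. The groups differed in this respect, since all 3 retromer genes and 4 of 8 HOPS and CORVET genes were operon-like but none of 11 ESCRT genes was. The part of gene arrangement in the difference between ESCRT and retromer was not tested.

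The promoter of the first gene of the cluster held an IDR summit for 12 of the 20 operon-like members (60%), against 36.3% of all operon-like genes. The strongest of these were at rpb-7, ahead of sec-11 (signal 218.8), at erh-1, ahead of vps-54 (191.9), and at bmy-1, ahead of sec-6 (168.1). The others were rbm-26 ahead of arf-1 (42.3), rpb-10 ahead of arl-13 (66.0), panl-3 ahead of arl-5 (90.3), cyn-11 ahead of rab-21 (42.2) and taf-11.3 ahead of rab-33 (130.5). They continue with tag-322 ahead of sec-10 (83.6), ubc-20 ahead of sec-20 (45.7), txdc-9 ahead of vps-16 (106.2) and ZK1128.1 ahead of vps-29 (80.1). Counting a gene's own promoter or the first promoter, 13 of the 20 operon-like members had a summit and 7 had neither. The same combined count was not made over all operon-like genes. This count was added after the data were seen, and the gap rule is not an annotation of operons.

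Of the 49 unbound members, 20 had no region of the pooled relaxed list in the promoter, and the best pooled rank of the other 29 was 3967, at vps-26. With a wider promoter of 2000 bp upstream and 500 bp downstream, 37 members were bound (48.7%), against 20.8% of all genes. The summits gained lay 1643 bp upstream at arl-13, 1169 bp at rab-10, 1889 bp at rab-19, 1584 bp at rab-21 and 1533 bp at rab-33. They lay 1848 bp upstream at sec-11, 1153 bp at sec-6, 1306 bp at vps-16 and 1799 bp at vps-29, and 227 bp downstream at vps-8. For rab-10 and vps-8 the member itself had the nearest start, and for the other 8 another gene did. At arl-13, rab-21, rab-33, sec-6, sec-11, vps-16 and vps-29 the summit gained was the one already counted at the first gene of the cluster.

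Genes of the same transport steps with other symbols were counted from lists of 106 names, of which 5 did not match the annotation. Of the matched genes, 39 were bound (38.6%), against the 16.4% of all genes given above. Counted over all matched genes, bound or not, the top regions of replicate 1 gave 24, against 11.8% of all genes. Those of replicate 2 gave 39, against 16.5%. The replicate 1 count includes tbc-11, cogc-4, trpp-11 and vamp-7, and the replicate 2 count includes alx-1, all without an IDR summit. The bound gene apa-2 was not in the top regions of replicate 2. All 3 COPII partners were bound, which were the GTPase gene sar-1 (signal 163.9), tfg-1 (148.7) and npp-20, the SEC13 gene (130.8). With them 7 of 10 COPII genes were bound. For ESCRT the result was different, since 1 of 8 partners was bound, did-2 (78.4), giving 10 of 19 in all. The 7 unbound ESCRT partners were tsg-101, hgrs-1, stam-1, mvb-12, istr-1, alx-1 and usp-50. The share seen among the vps-named ESCRT genes was thus not seen among their partners.

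Of 5 retromer partners 3 were bound, snx-1 (51.5), snx-3 (40.5) and rme-8 (53.8), and of 2 exocyst partners exoc-7 was bound (88.8). None of these was in the top regions of replicate 1, where the counts were 0 for both lists, and in replicate 2 they were 3 and 1. Of 15 genes for Rab regulators and relatives 3 were bound, which were rme-4 (190.2), a RAB-35 exchange factor, ccz-1 (340.2), a subunit of the RAB-7 exchange factor, and unc-108 (120.0), which encodes RAB-2. The share among them (20%) was near that of all genes.

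Most genes of the COPI coat, which returns vesicles from the Golgi, and of clathrin and its adaptors had a summit. Of 7 COPI genes 5 were bound, which were copa-1 (61.4), copb-2 (106.5), copg-1 (76.6), cope-1 (75.3) and copz-1 (115.2). Of 15 clathrin and adaptor genes 10 were bound, with clic-1, the clathrin light chain gene (309.1), and apb-1 (289.3) the strongest, then aps-1 (183.6), aps-3 (116.0), apg-1 (106.6), dpy-23 (99.96), dyn-1 (52.5), chc-1 (49.2), apa-2 (46.9) and apm-1 (45.7). In the top regions of replicate 1 these counts were 1 COPI gene and 5 clathrin and adaptor genes, and in replicate 2 they were 5 and 9. The COPI count therefore rests on replicate 2.

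Golgi tethers and the SNARE fusion machinery were the last lists counted. Of 7 COG genes 4 were bound, cogc-2 (490.5), cogc-3 (88.5), cogc-6 (70.6) and cogc-8 (83.1), and of 10 TRAPP genes 2 were, trpp-10 (249.1) and trpp-6 (44.2). Of 29 genes listed as SNARE and NSF genes 7 were bound (24.1%). They were nbet-1 (227.9), syx-5 (208.2), snb-1 (93.4), nsf-1 (90.9), use-1 (80.7), memb-1 (74.6) and aex-4 (68.1). The list was matched by symbol and includes bet-1, which was not bound and is not a SNARE gene in the worm. The denominators here and over all lists include it. The share was 57.1% for COG and 20% for TRAPP genes. The TRAPP and SNARE shares were near the 16.4% of all genes. The top regions of replicate 1 gave 3 COG, 2 TRAPP and 7 SNARE and NSF genes, against 11.8% of all genes. Those of replicate 2 gave 4, 2 and 7, against 16.5%. The replicate 1 counts include cogc-4, trpp-11 and vamp-7, which had no IDR summit.

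The 4 longer motifs were in 16 of the 29 windows of 50 bp to either side of member summits (55.2%), against 44.5% of the windows at all 3909 IDR summits and 47.2% at the 2547 in promoters. This order turned in both other windows, with 27.6% of member windows against 28.6% of all IDR windows at 25 bp and 55.2% against 57.2% at 100 bp, so no raised share of the longer motifs is read from it. ACGCGC was in 7 of the 29 (24.1%) against 12.3% of all IDR windows and 16.2% of those in promoters. The motifs GAGCGC plus AGACGC were each in 5 (17.2%), against 12.4% and 12.6% of all IDR windows. GAGAGA was in 5 (17.2%) against 22.3%, and ACGT was in 6 (20.7%) against 26.1%. For ACGT the order also turned, with 17.2% against 14.6% at 25 bp and 51.7% against 43.4% at 100 bp. No match to any of the 5 was found in 11 of the 29 windows, among them that of vps-22.

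For unbound promoters, windows of the same length were taken around a point 178 bp upstream of the start, the median distance of the member summits. There ACGCGC was in none of the 49 unbound members, nor was AGACGC, but these motifs were in 2.46% and 2.79% of all genes, so a count of 0 is near the share of all genes. Any of the 4 longer motifs was in 6 (12.2%), against 13.3% of all 19973 genes. ACGT was in 8 of the 49 (16.3%) against 20.05% of all genes. At that distance 9 of the 27 bound members (33.3%) held a longer motif. Because the distance was taken from the member summits, some of these windows cover the summit itself, as at vps-33.1 and vps-37. The longer motifs were also found in these data, so the bound and unbound shares are not set against each other. Base composition moved with these counts, since the windows were 48.0% G or C at member summits, 32.2% in unbound members and 34.3% over all genes, and its part in the motif shares was not tested.

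**Figure D5:**
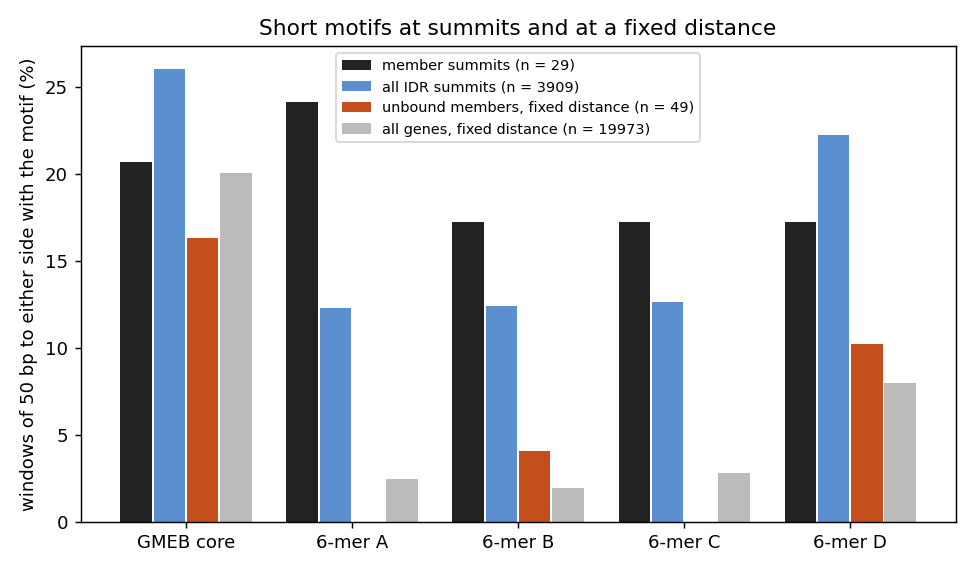
Share of windows of 50 bp to either side, in percent, that hold the GMEB core (ACGT), 6-mer A (ACGCGC), 6-mer B (GAGCGC), 6-mer C (AGACGC) or 6-mer D (GAGAGA) at member summits, at all IDR summits, and 178 bp upstream of unbound members and of all genes. ACGCGC was in 24.1% of member summit windows and 12.3% of all IDR windows, and at the fixed distance it was in none of the 49 unbound member windows and in 2.46% of those of all genes.

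Members were spread over all 6 nuclear chromosomes. On I, 7 of 16 were bound against 21.4% of all genes there, on II 6 of 16 against 15.6%, and on III 4 of 16 against 25.2%. On IV, 2 of 11 were bound against 15.8%, on V 4 of 7 against 12.03%, and on X 4 of 10 against 12.1%. The share of members was thus near that of all genes on III and IV and above it on the other chromosomes.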

How the data were processed

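The authors deposited region lists for each replicate, for both together and for the IDR list, and their signal is a caller value that is never negative. Per the deposited readme, each relaxed list was called from alignments and a control, and the IDR list was derived from these lists. The sources used here do not name the caller, the aligner or the IDR threshold. The ce11 lists were used, and the ce10 lists were not used here.

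Summits were matched to starts of Ensembl release 115. Signal was used only within a list, and ranks across replicates. Both replicates are labelled biological replicates of 1 group. In each replicate the top 3909 regions were taken. Matching to complexes was by symbol, and the names vps-3, vps-32.2 and vps-46 did not match. The members and lists were chosen with earlier results of these data known. Every bound member was named with its values, unbound members by complex, and bound genes of the other lists. Because there was 1 group, no test was made, and counts stand beside those of all genes. No depth-based interval is given. Operon-like genes have a same-strand protein-coding neighbour ending within 300 bp upstream. Alternatives were other promoter windows, the 1954 strongest regions, each replicate alone, the nearest start, region overlap of at least 1 bp, both relaxed lists, genes not operon-like, and motif windows of 25 and 100 bp. A motif share was called changed when it left its 95% exact binomial interval. This served as a label and not a test, because summit windows are not replicates and the windows of different length overlap. The scripts were tested on simulated data. Python 3.11.15, numpy 2.4.6, scipy 1.17.1, pandas 2.3.3 and matplotlib 3.10.9 were used.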

Additional observations from a re-analysis of the deposited data

How the results depend on the processing

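The count of 27 bound members ran from 18 (nearest start only) to 37 (promoter of 2000 and 500 bp), and was 21 with a promoter of 500 and 100 bp. It was 39 when the first gene of an operon-like cluster counted too, an alternative chosen after seeing the data. The share of all genes was not counted with the narrow promoter or with the first gene added, so counts under these settings have no background. With 1 replicate left out the count of bound members was 23 (without replicate 2) or 28 (without replicate 1). The COPII and exocyst count fell from 7 to 4 among the 1954 strongest regions. The rab and arl count of 6 became 3 with the narrow promoter, 11 with the wide one and 10 with the first gene of the cluster. The count for ESCRT, retromer and HOPS genes as 1 group never moved by more than 1.5 times. ACGT was in 51.7% of member windows at 100 bp to either side, against 43.4% of all IDR windows, and GAGAGA in 3.45% at 25 bp, against 12.5%. The narrow promoter and the narrow window hold less sequence by construction and the wide ones hold more, and other causes were not tested. Small complexes moved most. Without replicate 2, 2 of 7 COPII genes were bound, and without replicate 1, 2 of 3 retromer genes. No paired analysis was possible because there was 1 group. Depth is unknown, so a missing summit does not show that GMEB-1 was absent.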
